A study of Mus musculus with 8 samples.

Results

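The 4 arrays labelled WT, of 8 in the series, follow wild-type mouse muscle precursor cells through differentiation in culture, with 1 array each on days 2, 4, 5 and 6. They were chosen by their label alone. The other 4 arrays hold cells of mice labelled Dnmt3a-KO on the same days and serve here only for side-by-side values. All 8 samples carry the same description. The cells are satellite cells of the extensor digitorum longus (EDL), a fast muscle of the lower hind limb, from mice labelled male and 8 weeks old, and the WT mice were littermates of the mutants. Cells spent 5 days in growth medium, were replated at equal cell number and then stayed in differentiation medium for the stated number of days. The labels do not give the number of mice behind an array, whether mice were pooled, or which alleles and Cre driver, if any, the littermates carried.

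Satellite cells are the stem cells of skeletal muscle. When activated they proliferate as myoblasts under the transcription factors Pax7, Myf5 and Myod1. On withdrawal of growth factors they leave the cell cycle, switch on Myog and Mef2 factors, fuse into multinucleated myotubes and assemble sarcomeres from muscle isoforms of myosin, actin, troponin and tropomyosin. Developmental isoforms come first in that sequence, and adult fast, slow and metabolic genes follow.

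Each value below is a signal, the intensity of a gene's brightest probe divided by the array's 75th percentile of intensity, so that a signal of 1 equals that percentile. Levels of different genes are not compared, because probes differ in brightness. Of 31774 named genes, 22469 were well above background, by the scanner software's own flag, on at least 1 WT array, and 17507 on all 4. Signals under 0.00976, the lowest scaled signal well above background, were set to that floor, and a ratio to an array without a signal well above background is given as a lower bound ("at least"). With 1 array a day there is no replicate error for any day. Where "SD" follows a log2 difference, it is the spread of days 4, 5 and 6 around their mean, which are different days and not replicates.

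The arrays share 1 design with 43020 non-control spots, of which 61.6% to 65.1% were well above background on the WT arrays. Day 2 stands apart on technical grounds. It lay on slide 1, read on a G2505C scanner with a newer version of the Feature Extraction software, whereas days 4 and 5 lay on slide 2 and day 6 on slide 3, read on a G2505B scanner with version 9.5.3.1. Repeated spots of 1 probe on an array differed by a median SD of 0.066 log2 units on day 2 and by 0.14 to 0.16 on days 4 to 6. After background subtraction 0 spots were at or below 0 on day 2, against 5001, 4775 and 5797 on days 4, 5 and 6. The later arrays also go against the label male. Eif2s3y, a translation factor gene of the Y chromosome, had a signal of 3.78 on day 2 and lay at the floor on days 4, 5 and 6, a difference of at least 338-fold. Ddx3y, a Y-linked RNA helicase gene, went from 1.46 to the floor on all later arrays, at least 131-fold. Xist, the noncoding RNA made from the silenced X in cells of females, lay at the floor on day 2 and measured 0.782, 0.642 and 0.658 later, at least 70.8-fold higher. The Dnmt3a-KO arrays split between day 2 and the later days in the same way. The day, the slide, the scanner, the software and the source of the cells therefore cannot be told apart in any comparison with day 2. Days 4 to 6 share the scanner, the software and the sex-linked pattern. The day 6 array lay on another slide than days 4 and 5, so that slide and day 6 cannot be told apart.

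Markers of the labelled cell type were present on all 4 arrays. Of 10 myogenic markers, 9 were well above background on every WT array, and Myf5, a regulator of early myoblasts, on none. The targeted gene of the series, Dnmt3a, a DNA methyltransferase, measured 0.519, 2.65, 2.50 and 2.04 on the WT arrays and 0.240, 0.525, 0.542 and 0.389 on the Dnmt3a-KO arrays of days 2, 4, 5 and 6. The WT signal was thus the higher of the pair on each day. It was also 4.59-fold higher on the later WT days than on day 2.

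A gene was called higher or lower when each of the 3 later arrays lay at least 2-fold from day 2 in the same direction. By that rule 2192 genes (9.76% of 22469) were higher on days 4 to 6 and 2078 (9.25%) were lower. Of the 17507 genes measured on all 4 arrays, 1719 (9.82%) were higher and 1405 (8.03%) lower. With quantile normalization in place of the 75th percentile the counts were 1794 higher and 2484 lower. The median gene was 0.11 log2 units above day 2 as scaled here and -0.01 after quantile normalization, so the sign of a shared shift of that size depended on the scaling. Most called genes moved little after day 4. Higher genes had a median gap of 1.5 log2 units to the nearest later array, but a range of only 0.37 over days 4 to 6, and 1998 of them (91.2%) stayed within 2-fold over those days. Among genes measured on all 4 arrays, the median absolute difference was 0.53 log2 units from day 2 to 4 and 0.12 from day 4 to 5. In bulk RNA a change in the number of cells of a type and a change in RNA per cell cannot be told apart, which holds for all that follows.

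**Figure D1:**
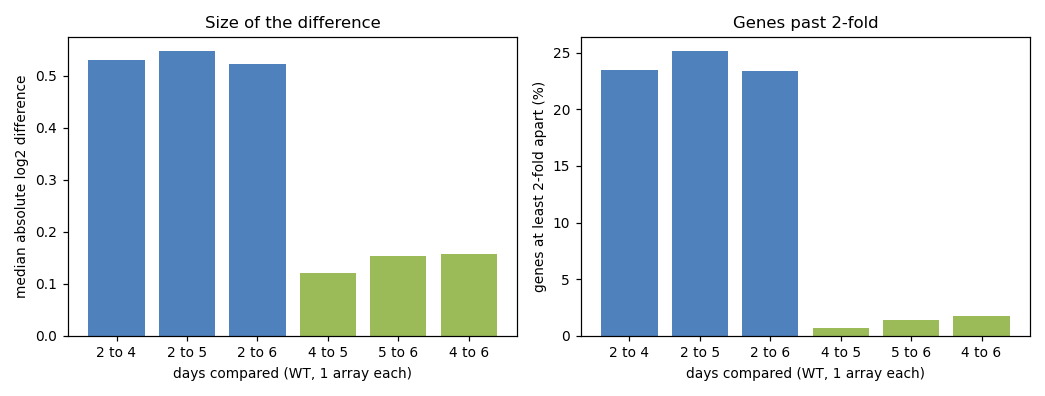
Size of the differences between WT arrays over the 17507 genes well above background on all 4 of them. Bars on the left give the median absolute log2 difference, and bars on the right the percent of genes at least 2-fold apart, for the day pair on the horizontal axis, blue with day 2 and green without it. Pairs with day 2 put 23.4% to 25.1% of genes past 2-fold, and pairs among days 4, 5 and 6 between 0.703% and 1.76%.

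Grouped by function, the cell cycle lists were lower after day 2, and the lists of fast and slow muscle isoforms, muscle energy supply, extracellular matrix and transforming growth factor (TGF)-beta signalling held more higher than lower members. Of 35 lists with 761 entries in all, 695 entries were measured. The counts of list members given below are to be set beside the shares over all genes, 9.76% higher and 9.25% lower. A list with few members called may lie near those shares. No list of contractile isoforms, energy supply or matrix had a median below that of all genes.

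**Figure D2:**
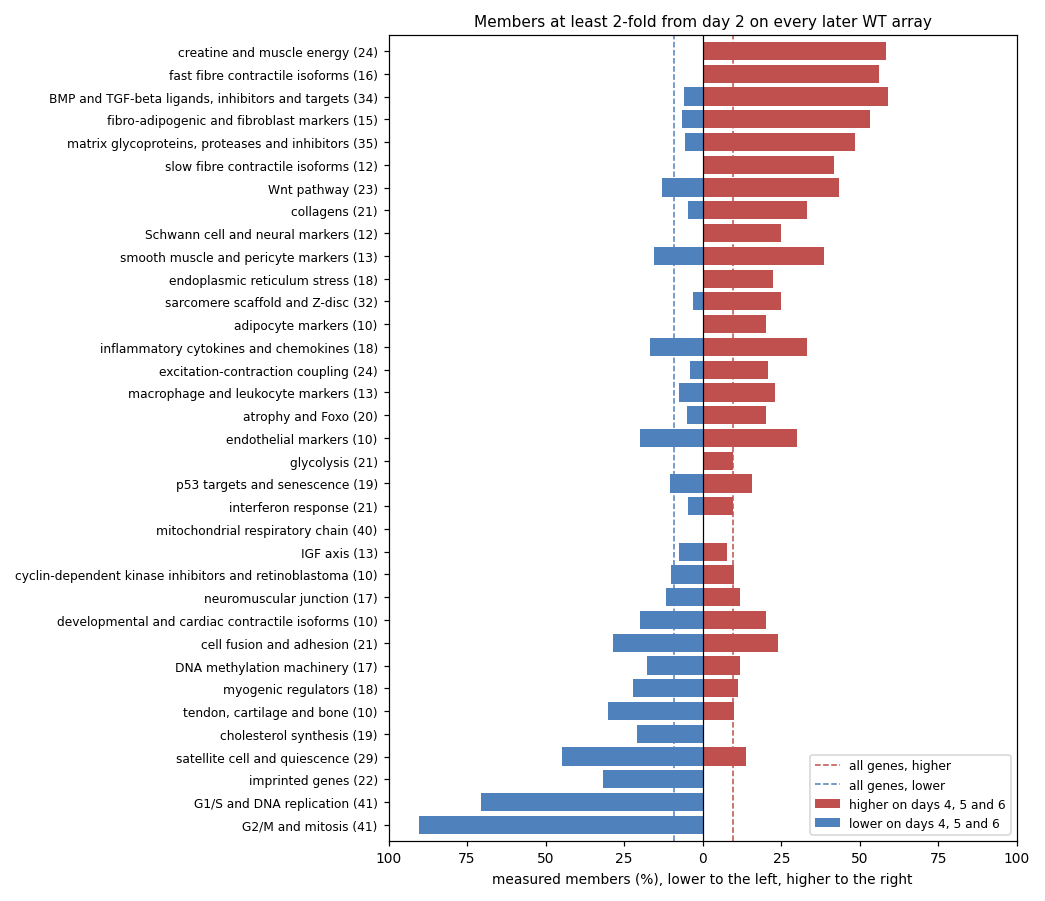
Percent of the measured members of each of 35 gene lists (number in brackets) that were at least 2-fold higher (red, to the right) or lower (blue, to the left) than day 2 on every later WT array. Dashed lines give the shares over all 22469 genes, 9.76% higher and 9.25% lower. G2/M and mitosis lies at the lower end with 37 of 41 members lower and none higher.

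Of 41 measured genes of G2/M and mitosis, 37 were lower on days 4 to 6, none was higher, and the median difference was -2.40 log2 units. Kif23, a kinesin of the cytokinetic midbody, measured 0.625 on day 2 and 0.0680, 0.0436 and 0.0616 on days 4, 5 and 6, which is 11-fold lower (log2 -3.46, SD 0.34). Top2a, the topoisomerase that untangles replicated chromosomes, went from 1.62 to 0.175, 0.121 and 0.165, 10.7-fold lower. Mki67, the proliferation marker Ki-67, went from 5.96 to 0.747, 0.514 and 0.646, 9.47-fold lower. In these genes every later array lay far below day 2, and the day 5 array was the lowest. Plk1 and Cdk1, kinases that start mitosis, were 7.01-fold and 5.56-fold lower. The 4 members that were not called were Pttg1, Cdc25b, Spc25 and Cenpf. Pttg1, the separase inhibitor securin, measured 4.37, 5.39, 5.13 and 4.83, so its level did not follow the other mitotic genes.

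The bases upstream of the start of the 3 members with the largest falls are shown because mitotic genes are known to share the CCAAT box and the cell cycle homology region (CHR). They are the 250 bases before the RefSeq start in GRCm38.p6, read 5′ to 3′ on the gene's strand. Capitals mark CCAAT or TTTGAA on either strand, the latter being the CHR core searched.
Kif23, chr9:61946800-61947049, minus strand: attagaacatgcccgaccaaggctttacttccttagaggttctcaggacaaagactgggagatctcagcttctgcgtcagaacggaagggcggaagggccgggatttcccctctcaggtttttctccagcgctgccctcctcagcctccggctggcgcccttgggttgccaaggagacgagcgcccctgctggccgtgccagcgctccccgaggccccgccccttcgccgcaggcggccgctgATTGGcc
Top2a, chr11:99024190-99024439, minus strand: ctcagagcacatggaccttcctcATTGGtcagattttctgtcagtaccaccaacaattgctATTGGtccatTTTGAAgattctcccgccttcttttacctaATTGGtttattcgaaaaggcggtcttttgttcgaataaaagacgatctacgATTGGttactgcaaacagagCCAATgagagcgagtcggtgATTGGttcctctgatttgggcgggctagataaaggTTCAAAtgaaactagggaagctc
Mki67, chr7:135716380-135716629, minus strand: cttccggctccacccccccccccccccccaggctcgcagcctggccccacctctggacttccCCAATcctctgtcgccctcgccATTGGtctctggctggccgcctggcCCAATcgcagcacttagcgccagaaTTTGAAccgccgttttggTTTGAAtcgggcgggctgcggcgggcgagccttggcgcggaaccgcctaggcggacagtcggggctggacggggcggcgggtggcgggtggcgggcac
The Kif23 window held 1 CCAAT box and no CHR. Top2a held 6 CCAAT boxes and 2 CHR cores, and Mki67 held 3 and 2. Over the list, 27 of 37 windows (73%) held CCAAT, against 33.8% of 32851 RefSeq promoter windows of the same length. The CHR core was in 11 of 37 (29.7%) against 16% of all windows, and both were in 27% against 5.55%. For the G1/S list CCAAT was in 22 of 38 windows (57.9%) and TTTGAA in 13.2%. A match is a string of letters and does not show that a factor binds there.

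Of 41 genes of G1/S and DNA replication, 29 were lower, none was higher, and the median was -1.51. Ccna2, the cyclin of S phase, measured 2.63, 0.417, 0.233 and 0.270, 8.86-fold lower later (SD 0.44). Tk1, thymidine kinase, measured 2.48, 0.387, 0.264 and 0.335, 7.63-fold lower. All measured subunits of the replicative helicase were lower, from 2.34-fold for Mcm6 to 4.11-fold for Mcm3. Ccnd1, the cyclin through which growth factors start the cycle, went from 33.4 to 10.003, 10.95 and 12.96. The 2 other D cyclins did not follow it. Ccnd3, which is known to be made in differentiating muscle, measured 70.8, 78.3, 81.8 and 67.7, and Ccnd2 measured 6.75, 5.60, 9.32 and 6.95.

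Among 10 measured cyclin-dependent kinase inhibitors and retinoblastoma family genes, 1 was higher and 1 lower. This is near the shares over all genes (9.76% and 9.25%). Cdkn2d (p19) was higher, at 2.74 on day 2 and 7.37, 7.30 and 6.83 later, 2.61-fold. Cdkn1c (p57), a maternally expressed imprinted gene, was lower, with 77.6 on day 2 and 13.0, 13.9 and 9.84 later, 6.41-fold (log2 -2.68, SD 0.26). Cdkn1a (p21), the inhibitor best known for the exit of myoblasts from the cycle, was bright on all arrays at 60.3, 66.3, 69.7 and 73.1. Its level on day 2 was thus close to that of the later days.

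Satellite cell and quiescence genes were mixed, with 13 of 29 lower, 4 higher and a median of -0.87. Pax7, the transcription factor that defines satellite cells, measured 1.05 on day 2 and 0.163, 0.160 and 0.212 later, 5.94-fold lower (SD 0.23). Fgfr4, a fibroblast growth factor receptor of myoblasts, measured 7.44, 0.874, 0.791 and 0.804, 9.05-fold lower. Of the Notch pathway, which keeps satellite cells undifferentiated, the receptor Notch3 went from 5.78 to 0.581, 0.654 and 1.12, the ligand Dll1 from 1.11 to 0.288, 0.254 and 0.315, and the target Heyl from 0.619 to 0.157, 0.154 and 0.261. Another ligand, Jag1, was higher, at 0.0641, 0.193, 0.237 and 0.154. Cd34, a surface protein of quiescent satellite cells and also of fibro-adipogenic and endothelial cells, was the most raised member: 0.318 on day 2, then 2.60, 5.06 and 5.45, 13.1-fold higher (log2 3.71, SD 0.59).

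**Figure D3:**
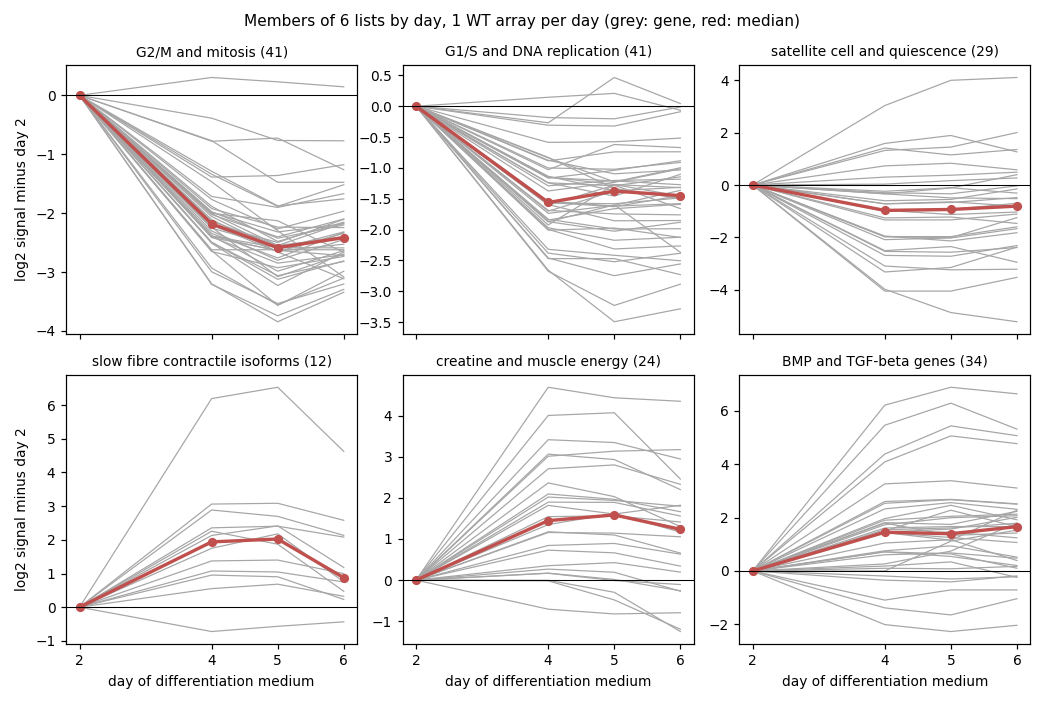
Log2 signal minus that of day 2 for every measured member of 6 lists (grey lines) and the median member (red, with points), by day of differentiation medium, with 1 WT array a day and a vertical scale of its own in each panel. The median of G2/M and mitosis lies near -2.2 to -2.6 on all later days, while the medians of slow isoforms and energy genes peak on day 5 and are lower on day 6.

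Of 18 measured myogenic regulators, 4 were lower and 2 higher. Myod1, the factor that commits cells to muscle, measured 22.0, 9.06, 8.24 and 10.3, 2.40-fold lower later. Myog, which drives terminal differentiation, stayed within a narrow band at 90.5, 75.3, 68.6 and 82.6. Myf6 (MRF4), the latest acting of the family, went from 1.36 to 10.5, 9.13 and 5.44, 5.91-fold higher. These 3 genes thus held different courses: down by day 4, level, and up by day 4 with a fall on day 6. Mef2c, the partner of these factors on muscle promoters, went from 1.99 to 7.92, 8.24 and 7.09, 3.89-fold higher, whereas Mef2a measured 0.456, 0.522, 0.495 and 0.560 and Mef2d 1.44, 1.13, 1.08 and 0.815. The lower members besides Myod1 were Tcf3 and Tcf12, the E-proteins that pair with Myod1, at 2.26-fold and 2.35-fold, and Id2, an inhibitor of E-proteins, at 2.56-fold. Id1 (8.95, 9.59, 9.47 and 10.1) and Id3 (9.34, 8.19, 7.59 and 8.04) were not called.

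Genes of fusion and adhesion went both ways, with 5 of 21 higher and 6 lower. Mymk (myomaker), the membrane protein required for fusion, was bright and level at 53.4, 45.4, 42.2 and 44.2. Adhesion molecules of myoblasts were lower: Cdh15 (M-cadherin) went from 55.7 to 20.9, 22.2 and 20.6, Jam3 from 20.6 to 7.30, 6.80 and 8.63, and Vcam1 from 2.96 to 0.699, 0.883 and 0.623. Among the integrins Itga6 was 2.63-fold lower, and Itga9 was higher at 0.367, 1.89, 2.07 and 1.42.

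**Figure D4:**
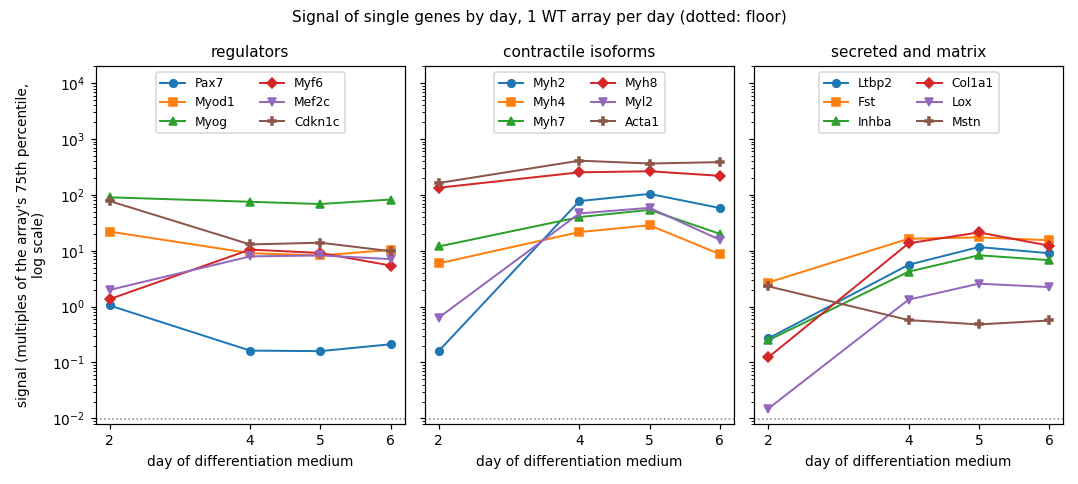
Signal of 18 genes by day on a log scale, with 1 WT array a day and the floor of 0.00976 as a dotted line, for regulators (left), contractile isoforms (middle) and secreted or matrix genes (right). Myog stays between 68.6 and 90.5 while Pax7 is lower from day 4 on, Myh2 and Myl2 are far above their day 2 signal on all later days, and Mstn is the 1 gene of the right panel that is lower.

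Adult fast isoforms were higher in 9 of 16 measured members and lower in none, with a median of 1.22. The largest rise among the named genes was that of Myh2, the myosin heavy chain of fast oxidative type 2A fibres (probe at chromosome 11, 67010960 to 67011019, mm9). Its signal was 0.161 on day 2 and 77.5, 104 and 58.2 on days 4, 5 and 6, 482-fold higher (log2 8.91, SD 0.42). Mybpc2, the fast myosin-binding protein C, measured 0.122, 2.59, 3.56 and 1.75, 20.7-fold higher. Myh4, the type 2B heavy chain that dominates the adult EDL, was 5.95, 21.6, 28.6 and 8.69, and is not in the count because the day 6 array was under 2-fold. Members that were already bright on day 2 had smaller ratios: the troponins Tnni2 (99.7, 367, 320 and 295), Tnnt3 and Tnnc2 were 3.27-fold, 2.28-fold and 2.22-fold higher.

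Slow isoforms were higher in 5 of 12 and lower in none, with a median of 1.55. Myl2, the slow and cardiac regulatory light chain, measured 0.637, 46.5, 58.8 and 15.7, 55.0-fold higher (log2 5.78, SD 1.02). Mybpc1, the slow myosin-binding protein C, measured 8.34, 69.6, 70.8 and 49.8, 7.50-fold higher. Myh7, the slow heavy chain, went from 11.9 to 40.1 and 54 and then to 20.1 on day 6, where it missed 2-fold. Of the 10 measured members of the developmental and cardiac isoform list, 2 were higher and 2 lower. The lower members include Chrng, an acetylcholine receptor subunit and not a contractile isoform, which is also counted at the neuromuscular junction. Myh8, the perinatal heavy chain, measured 134, 254, 265 and 220, and Actc1, the cardiac actin of embryonic muscle, 272, 432, 447 and 392, both under 2-fold on 1 or more later arrays. Myl4, the embryonic light chain, passed at 221, 468, 479 and 443. Myh3, the embryonic heavy chain, was left out of the counts because both its probes were marked as uneven on the day 4 array. The brighter read 219 on day 2, 316 on day 5 and 267 on day 6.

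Sarcomere scaffold genes were higher in 8 of 32, lower in 1, with a median of 0.95. Acta1, the actin of adult skeletal muscle, measured 163, 410, 364 and 386, 2.37-fold higher. Myot (myotilin), a protein of the Z-disc, went from 1.13 to 23.6, 26.0 and 19.1, 20.04-fold higher. Xirp2, an actin-binding protein, was 21.1-fold and Tmod4, which caps thin filaments, 11.6-fold higher. Ttn (titin), the giant spring of the sarcomere, was the member that was lower, at 66.1, 23.9, 23.2 and 17.1 (3.12-fold). Neb (nebulin), another giant transcript, measured 29.8, 24.3, 21.4 and 15.9 and was not called.

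In excitation-contraction coupling 5 of 24 were higher and 1 lower. Sln (sarcolipin), a regulator of the calcium pump, measured 4.01, 68.8, 69 and 100.6, 19.5-fold higher. Kcna7, a potassium channel of muscle, was 7.64-fold and Trdn (triadin) 3.23-fold higher. Ryr3, the release channel of immature muscle, was 3.31-fold lower (0.323, 0.120, 0.103 and 0.0755), while the main channel Ryr1 measured 20.3, 19.8, 16.2 and 13.9. At the neuromuscular junction 2 of 17 were higher and 2 lower. The 2 acetylcholine receptor subunits that replace each other after birth moved in opposite directions: the fetal subunit Chrng measured 9.07, 4.05, 4.21 and 3.53, and the adult subunit Chrne 0.0165, 0.0815, 0.0842 and 0.0426.

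Muscle energy supply had 14 of 24 members higher, none lower and a median of 1.44. Mb (myoglobin), the oxygen store, measured 14.9, 120, 131 and 135, 8.62-fold higher (SD 0.08). Ckmt2, the mitochondrial creatine kinase of sarcomeric muscle, measured 0.793, 12.7, 13.3 and 4.35, 11.4-fold higher, and the cytosolic enzyme Ckm 5.03, 17.7, 15.3 and 17.8. Cox7a1, a muscle isoform of a cytochrome oxidase subunit, measured 1.97, 21.0, 20.03 and 15.2, 9.41-fold higher, and the muscle isoforms Cox6a2 and Cox8b were 2.60-fold and 3.75-fold higher. Fabp3, a fatty acid carrier of muscle, measured 14.1, 118, 108 and 65. By contrast none of 40 general respiratory chain genes passed 2-fold in either direction, with a median of 0.44. Of 21 glycolytic genes 2 were higher: Pfkm, the muscle phosphofructokinase (15.6, 58.1, 57.8 and 46.0), and Pdk4, the kinase that shuts pyruvate out of mitochondria (1.01, 14.5, 15.5 and 12.7).

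The same stretch of 250 bases is shown for the 3 members of the fibre and energy lists with the largest rises that have a single RefSeq promoter entry and were measured on all 4 arrays, since the Myod1 family is known to bind the E-box. Capitals mark the E-box CANNTG, in which N is any base.
Myh2, chr11:67170777-67171026, plus strand: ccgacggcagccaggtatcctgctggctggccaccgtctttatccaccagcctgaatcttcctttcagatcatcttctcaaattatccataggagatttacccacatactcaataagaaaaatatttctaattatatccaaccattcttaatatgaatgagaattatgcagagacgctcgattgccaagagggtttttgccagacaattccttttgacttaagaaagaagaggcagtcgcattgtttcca
Mybpc2, chr7:44524670-44524919, minus strand: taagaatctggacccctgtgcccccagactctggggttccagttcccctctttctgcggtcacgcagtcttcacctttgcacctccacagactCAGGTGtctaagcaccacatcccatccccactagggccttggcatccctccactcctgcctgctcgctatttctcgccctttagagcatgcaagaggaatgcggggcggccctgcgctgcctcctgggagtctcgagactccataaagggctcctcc
Ckmt2, chr13:91876886-91877135, minus strand: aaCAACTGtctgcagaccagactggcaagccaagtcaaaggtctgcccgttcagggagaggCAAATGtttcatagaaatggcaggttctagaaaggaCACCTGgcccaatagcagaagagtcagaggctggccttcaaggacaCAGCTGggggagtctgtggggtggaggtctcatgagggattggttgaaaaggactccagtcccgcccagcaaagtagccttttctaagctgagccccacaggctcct
There was no E-box in the Myh2 window, 1 in that of Mybpc2 and 4 in that of Ckmt2. No window of the 3 held the MEF2 motif. Over the muscle lists, 52 of 59 windows (88.1%) held an E-box, against 66.2% of all RefSeq windows, and 2 (3.39%) held the MEF2 motif, against 0.508%. An absent match says only that these letters are not in these bases.

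Ligands, inhibitors and targets of BMP and TGF-beta, secreted factors that restrain or reshape muscle, were higher in 20 of 34 measured members and lower in 2, with a median of 1.57. Among ligands, Inhba, the chain of activin A, measured 0.248 on day 2 and 4.22, 8.30 and 6.79 later, 25-fold higher (log2 4.64, SD 0.50). Gdf5, a BMP family ligand known to protect muscle mass, measured 0.114, 0.663, 0.728 and 0.648, and Tgfb1 0.228, 0.798, 0.762 and 1.07. Mstn (myostatin), the ligand that limits muscle growth, was lower, at 2.31, 0.574, 0.480 and 0.565, 4.30-fold. Extracellular inhibitors were among the higher members: Fst (follistatin), which binds activin and myostatin, went from 2.70 to 16.4, 17.4 and 15.5, and Fstl3 was 9.52-fold higher. Inside the cell, the inhibitory factors Smad6 and Smad7 were 2.86-fold and 3.21-fold higher. Ltbp2, which resembles the binding proteins that anchor latent TGF-beta in matrix, measured 0.269, 5.61, 11.7 and 9.03, 31.2-fold higher (SD 0.54). Id2, the BMP target described above among the regulators, was lower while Id1 and Id3 were not called.

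Collagens were higher in 7 of 21 and lower in 1, and other matrix glycoproteins, proteases and inhibitors in 17 of 35 and 2. Col1a1, the main chain of fibrillar collagen, measured 0.123, 13.6, 21.3 and 12.3, 124-fold higher (log2 6.96, SD 0.42). Lox, the enzyme that cross-links collagen, went from 0.0148 to 1.33, 2.58 and 2.24, 133-fold higher, and Fbln2, a glycoprotein of elastic fibres and basement membranes, from 0.439 to 24.0, 38.0 and 28.6, 67.5-fold higher. Ccn2, a matricellular growth factor, measured 0.691, 26.4, 44.3 and 34.6, and Postn (periostin) lay at the floor on day 2 and measured 0.553, 0.920 and 0.194, at least 47.3-fold higher. The fibrillar chain Col11a1 lay at the floor on day 2 and measured 0.0552, 0.202 and 0.0700, at least 9.43-fold higher. The fibrillar chains Col3a1 (6.01, 3.45, 6.64 and 5.12) and Col5a2 (0.957, 0.562, 0.749 and 0.586) were not called. Col18a1, the collagen that was lower, measured 18.1, 5.17, 5.28 and 8.54. Nid2 (nidogen-2) was lower at 6.94, 1.98, 2.32 and 3.18, and Fbln1 (fibulin-1) was 4.75-fold lower.

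Fibroblast and fibro-adipogenic markers moved with the matrix genes. Of the 15 measured, 8 were higher and 1 lower. Thy1, a surface protein of fibroblasts, measured 0.166, 1.40, 4.199 and 2.56, Mfap5, a microfibril protein, 0.0315, 3.46, 6.59 and 2.70, and Pdgfra, the defining receptor of fibro-adipogenic cells, lay at the floor on day 2 and measured 0.0935, 0.147 and 0.0584, at least 9.52-fold higher. Tcf7l2, a transcription factor of muscle connective tissue, was lower at 0.434, 0.134, 0.130 and 0.135. Lum, Dpt and Dpp4 of the 18 members were above background on no WT array. The summed signal of all 18 was 135, 227, 281 and 263. A sum is weighted towards bright probes. The 7 fibroblast markers used to check cell types summed to only 7.04, 6.31, 13.4 and 9.75, lower on day 4 than on day 2. Most of the larger sum thus came from other, brighter probes. The part of such cells in the matrix and TGF-beta results was not tested.

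Markers of other cell types were measured in the same way. Smooth muscle markers were higher in 5 of 13 and lower in 2, with a median of 0.79. Cnn1 lay at the floor on day 2 and measured 0.785, 1.51 and 0.511 later. Pdgfrb measured 0.0220, 0.694, 0.995 and 0.699, and Acta2 120, 149, 141 and 113. The pericyte marker Rgs5, given below among the largest falls, went the other way. The defining Myh11 was above background on no array. Of 20 macrophage and leukocyte markers 7 were above background on no array, Cd68 and Lyz2 among them, and of the 13 measured 3 were higher and 1 lower, with a median of 0.43. Their summed signal was 21.8, 13.2, 13.7 and 10.8, and the Itgam probe carried most of it (20.3, 11.2, 11.8 and 9.01). Endothelial markers were higher in 3 of 10 and lower in 2, with a median of 1.45, against 1.299 for the fibroblast markers. They summed to 3.73, 6.28, 6.09 and 5.49, with Tek, Tie1 and Esam above background on no array. Among the higher endothelial markers, Eng measured 0.135, 0.661, 0.733 and 0.550 and Flt1 0.0128, 0.0494, 0.110 and 0.0665. Among the lower ones, Cldn5 measured 0.193, 0.0360, 0.0324 and 0.0411. Schwann and neural markers were higher in 3 of 12 and lower in none, with a median of 0.57 and sums of 2.91, 4.16, 3.73 and 3.87. Adipocyte markers were higher in 2 of 10 and lower in none, with a median of 1.11 and sums of 4.96, 10.8, 10.3 and 9.92. Cebpb, 1 of those 2, measured 0.707, 6.12, 6.25 and 5.79, and its probe carried most of the rise of the sum. Dgat2 and Cebpa were not called, and Adipoq was well above background on the day 5 array only. The part of these cell types in the other results was not tested.

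Imprinted genes, many of which are known to be active in growing and fetal tissue, had 7 of 22 members lower and none higher. Mest, a paternally expressed gene of mesoderm, measured 55.1, 2.94, 3.06 and 3.89, 16.8-fold lower (log2 -4.07, SD 0.22). Plagl1, a zinc-finger regulator of other imprinted genes, measured 11.2, 1.62, 1.20 and 1.47, 7.89-fold lower, and Peg3 6.48, 1.91, 1.44 and 1.44. Ndn (0.784, 0.991, 1.29 and 1.08) and Snrpn (0.689, 1.14, 1.41 and 1.12) were not called. In the insulin-like growth factor (IGF) axis Igfbp3 was 5.40-fold lower and Igfbp6 3.76-fold higher, out of 13.

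In the DNA methylation machinery 2 of 17 were higher and 3 lower. The maintenance pair Dnmt1 (0.667, 0.263, 0.282 and 0.265) and Uhrf1 (3.88, 1.28, 1.07 and 1.07), both known to act at replication forks, was lower, in the opposite direction to Dnmt3a. Tet2, an enzyme that oxidises methylcytosine, measured 0.824, 2.21, 2.01 and 1.44. Of 19 cholesterol synthesis genes 4 were lower, among them Srebf2, a transcriptional regulator of the pathway (1.29, 0.532, 0.534 and 0.445), with a list median of -0.72.

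Wnt genes were higher in 10 of 23 and lower in 3. Wnt10a measured 0.120, 2.97, 2.51 and 1.29, and the secreted inhibitor Wif1 0.0818, 2.57, 1.72 and 1.89, 24.8-fold higher. Wnt7b was lower at 0.596, 0.0870, 0.0771 and 0.157. Of 18 cytokines 6 were higher and 3 lower. Ccl2, the monocyte attractant, measured 0.178, 2.79, 5.16 and 2.25, and Cxcl12, an attractant for Cxcr4-bearing cells, was lower at 4.50, 0.796, 0.781 and 0.616. Interferon response genes were higher in 2 of 21 and lower in 1, p53 targets in 3 and 2 of 19, and atrophy genes in 4 and 1 of 20. Gbp4 and Gbp9, relatives of the interferon list member Gbp2 that are not in that list, were among the largest falls. They were 17.9-fold and 17.2-fold lower. Of 18 endoplasmic reticulum stress genes 4 were higher and none lower. Those 4 were Trib3 (0.481, 3.06, 3.34 and 2.70), Atf3, Ddit3 and Chac1, all known targets of Atf4, while the chaperone Calr measured 19.2, 9.81, 11.5 and 11.

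Among single genes, the largest rises after Myh2 included Atp1b4, a muscle-specific protein related to sodium pump subunits (from the floor to 1.78, 1.35 and 1.57), Smtnl1, a regulator of muscle contraction (0.0134, 1.96, 2.25 and 1.33), and Kcnc4, a potassium channel (0.0125, 1.42, 1.74 and 0.930). Apart from the Y-linked genes, the largest falls included Syt10, a synaptotagmin (1.29, then 0.0167, 0.0297 and 0.0209), Rgs5, a regulator of G proteins known from pericytes (0.505, 0.0321, 0.0173 and 0.0136), and Il1r1, the interleukin-1 receptor (3.30, 0.244, 0.234 and 0.231). Falls were shorter than rises at the far end, with 28 genes at least 5 log2 units higher on every later array and 4 that far lower, of which Eif2s3y and Ddx3y were 2. On chromosome Y 13 of 38 genes were lower (34.2%), and on chromosome X 94 of 883 (10.65%) were lower and 79 (8.95%) higher.

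A second look at the same RNA came from other probes of the called genes. Of 476 further probes of higher genes, 431 (90.5%) had the same sign, and of 393 of lower genes 336 (85.5%). On the Dnmt3a-KO arrays, which share the slides of the WT arrays, 2112 of the 2192 higher genes (96.6%) and 1960 of the 2078 lower genes (94.4%) differed from day 2 in the same direction on all 3 later days. Those arrays hold the same split of slide, scanner, software and sex-linked genes, which cannot be told apart from the day. None of these shares was set beside the same share over all genes.

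Changes among days 4, 5 and 6 were few. Between days 4 and 5, which share a slide, 552 genes (2.46%) were at least 2-fold higher on day 5 and 253 (1.13%) lower. From day 5 to 6 the counts were 322 (1.43%) and 715 (3.18%). After quantile normalization they were 362 and 384 for the first step and 489 and 488 for the second, so the balance of higher and lower genes depended on the scaling. Dim genes made up most of these counts: among genes well above background on all 4 arrays, 66 (0.377%) were higher and 57 (0.326%) lower on day 5 than on day 4, and 77 (0.44%) were higher and 159 (0.908%) lower on day 6 than on day 5. From day 4 to 6, over both steps, 394 genes (1.75%) were higher and 532 (2.37%) lower, of which 107 (0.611% of the genes measured on all arrays) and 201 (1.15%) were well above background throughout.

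Most transcripts of the slow, fast, sarcomere and energy lists were lower on the day 6 array than on day 5. The day 6 array lay on another slide, so this step cannot be told apart from the slide. Of the slow isoforms, 4 of 12 measured were at least 2-fold lower on day 6 than on day 5 and none was higher, with a median step of -0.54 log2 units against -0.03 for all genes. Myl2 went from 58.8 to 15.7, Myh7 from 54 to 20.1, Myh7b, a related slow heavy chain, from 1.53 to 0.649, and Myl3, the slow essential light chain, from 0.915 to 0.347. On the Dnmt3a-KO arrays the same step was 15.2 to 13.7 for Myl2 and 7.49 to 8.80 for Myh7. Of the fast isoforms 3 of 16 were lower, Myh4 among them (28.6 to 8.69; 21.7 to 9.69 in Dnmt3a-KO). Ckmt2 went from 13.3 to 4.35 and Myf6 from 9.13 to 5.44, whereas Mb and Acta1 showed no such step. Ckm (15.3 to 17.8) and Sln were higher on day 6 than on day 5. The sarcomere and energy lists had medians of -0.34 and -0.31 for the step from day 5 to 6, and of -0.05 and 0.04 in Dnmt3a-KO.

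Many matrix and fibroblast genes were highest on the day 5 array. The median step of the fibroblast markers was 0.54 log2 units from day 4 to 5 and -0.31 from day 5 to 6, and that of collagens 0.52 and -0.39. The other matrix genes had median steps of 0.41 and -0.22, while the median of their differences from day 2 was 1.20, 1.18 and 1.49 on days 4, 5 and 6, so the list as a whole did not peak on day 5. In Dnmt3a-KO the collagen steps were 1.72 and -1.21. The summed signal of the 7 fibroblast markers used to check cell types was 7.04, 6.31, 13.4 and 9.75 on days 2, 4, 5 and 6. Of this sum Col3a1, which is also in the collagen list, gave 6.01, 3.45, 6.64 and 5.12. The sum is thus not separate from the collagen values, and the part of fibroblasts in the matrix values was not tested. Ly6a (Sca-1) measured 0.879, 1.85 and 0.882 and Cd248, a surface protein of stromal cells, 3.78, 7.19 and 2.78 on days 4, 5 and 6. In contrast G2/M genes had a median step of -0.45 from day 4 to 5 and 0.23 from day 5 to 6, so their low point lay on the day 5 array.

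Genes that moved in 1 direction over both steps and by at least 2-fold in all numbered 252 rising (1.12%) and 348 falling (1.55%), of which 89 (0.508%) and 151 (0.863%) were well above background on all 4 arrays. Penk, the precursor of enkephalin peptides, went from 0.396 to 0.744 and 2.06 on days 4, 5 and 6, 5.20-fold, after 0.0120 on day 2. Aqp5, a water channel, measured 1.65, 3.01 and 6.12, and Rnase4, a secreted ribonuclease, 0.815, 1.12 and 4.13. Slc16a11, a monocarboxylate transporter family member, measured 0.161, 0.237 and 0.630. The values of these genes on the Dnmt3a-KO arrays were 0.691, 2.84 and 1.93 for Penk and 0.506, 1.41 and 2.18 for Aqp5. Polr2b, a subunit of RNA polymerase II, is in this count through 1 array, with 3.90, 0.250, 3.29 and 3.49 on days 2 to 6 and 3.50 on day 4 of Dnmt3a-KO.

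Among the genes that fell over both steps was Meg3, an imprinted, maternally expressed long noncoding RNA. It measured 61.3 on day 2 and 38.0, 15.3 and 7.91 after, and was 4.81-fold lower on day 6 than on day 4. Mirg, a noncoding RNA of the same imprinted region, went down beside it at 14.5, 9.86, 4.25 and 2.85. Tro (trophinin), an X-linked adhesion gene, measured 5.86, 1.11, 1.04 and 0.251. Schwann cell genes were among them: Sox10, their defining transcription factor, measured 0.0432, 0.190, 0.0558 and 0.0365, and Ngfr, the low-affinity neurotrophin receptor, 0.159, 0.491, 0.172 and 0.118. In both genes days 5 and 6 lay near day 2, so the fall rests on the day 4 array. The sum of 4 Schwann cell markers was 0.382, 0.711, 0.333 and 0.243 in WT, and 0.282, 0.390 and 0.266 on days 4, 5 and 6 of Dnmt3a-KO. Sox10 measured 0.0555, 0.0823 and 0.0422 on those 3 Dnmt3a-KO arrays. Klhl31, a muscle protein of the kelch family, likewise stood out on 1 array (1.96, 9.42, 2.13 and 2.02), and its day 4 signal in Dnmt3a-KO was 2.19.

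Day 5 was at least 2-fold above both its neighbours for 292 genes (1.3%), of which 207 (70.9%) were well above background on 1 WT array only and 30 (0.171%) on all 4. Ccn5, a matricellular protein related to Ccn2, measured 0.265, 0.974 and 0.323 on days 4, 5 and 6, Ptn (pleiotrophin), a heparin-binding growth factor, 0.0319, 0.165 and 0.0475, and Pappa, a protease that frees IGF from its binding proteins, 0.0921, 0.310 and 0.0892. Ccn5 was also highest on day 5 in Dnmt3a-KO, at 0.114, 0.8 and 0.285. Day 5 was lowest for 37 genes (0.165%), 15 of them (0.0857%) measured on all 4 arrays. Antxr2, an anthrax toxin receptor that binds matrix, measured 2.59, 0.766 and 2.88, against 2.33, 2.38 and 2.33 in Dnmt3a-KO, and Esm1, a secreted proteoglycan, 0.686, 0.179 and 0.555.

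**Figure D5:**
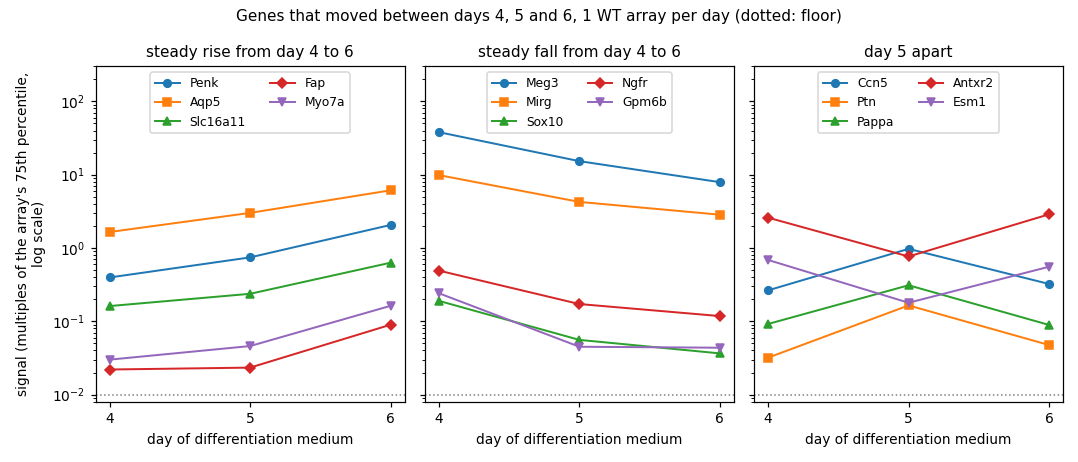
Signal of 15 genes on days 4, 5 and 6 on a log scale, with 1 WT array a day and the floor of 0.00976 as a dotted line, for genes that rose over both steps (left), fell over both steps (middle) or stood apart on day 5 (right). Meg3 and Mirg run down side by side, from 38.0 to 7.91 and from 9.86 to 2.85, and Penk and Aqp5 run up.

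Straight lines over the days were the 1 test the WT arrays allow, with 2 residual degrees of freedom over days 2 to 6 and 1 over days 4 to 6. No gene passed an adjusted p of 0.05 by limma with Benjamini-Hochberg adjustment in either fit (0% of 22469, up or down). The lowest adjusted p was 0.183 for days 2 to 6 and 0.719 for days 4 to 6. At an unadjusted p under 0.05 limma gave 2946 genes up and 2763 down, and 559 up and 821 down for the later days. Among the genes with the smallest p over days 2 to 6 were Mmp2, a gelatinase that remodels matrix (0.198, 0.680, 1.05 and 1.74), and Isyna1, the enzyme that makes inositol phosphate (43.9, 13.3, 10.2 and 6.71), whose signals moved at every step rather than once. With all 8 arrays in 1 limma fit and genotype as a covariate, 5089 genes went up with day and 4219 down at an adjusted p under 0.05, and these slopes hold the slide and sex-linked split as well. The difference between the WT and Dnmt3a-KO slopes passed for no gene by limma (0% of 22409; 193 up and 165 down at an unadjusted p under 0.05).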

How the data were processed

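RNA of cultured satellite cells was labelled with Cy3 and hybridised to Agilent 1-colour arrays of design 026655, per the labels and the file headers. The authors deposited scanner output, in which the processed signal is a background-subtracted intensity, per the file headers extracted with Feature Extraction 11.0.1.1 on day 2 and 9.5.3.1 later; the submitters' processing notes name Agilent Feature Extraction 9.5. The deposited value table holds a score that equals the processed signal times a constant over the 75th percentile, rounded, with negative values at 0 (median 6 in each column); this was checked against the scanner files, and 0 value columns of other samples were found. Its scale and direction are thereby known and its genes are not centred.

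Control spots and spots with an outlier flag were left out, which removed 199 of 39429 probes. Signals were scaled by each array's 75th percentile (719.5 to 1528.1 on the WT arrays), floored and put on a log2 scale. The WT day 2 array had 0 signals at or below 0, and the array with the most, WT day 6, had 5797. RefSeq names were matched to 26055 probes by accession, which updated 3358 symbols, and 13374 kept the file's name. Of the entries in the gene lists, 17 had no usable probe, 11 of them because a spot was flagged on the day 4 array (Atp5b, Atp5e, Atp5g3, Cav3, Cox4i1, Mybph, Myh1, Myh3, Myom2, Pgk1 and Tnnc1).

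Each day has 1 array, so day differences carry no test; the number of arrays limits the precision. Slopes over day came from lmFit and eBayes of limma 3.58.1, run in R 4.3.3, with p-values adjusted by Benjamini-Hochberg. Nothing says that the arrays came from separate animals. The p-values weigh a slope only against the departure of these arrays from a straight line over the days. Sums and counts used Python 3.11.15 with pandas 2.3.3, and the fits were tested on simulated data. RefSeq promoter windows are from GRCm38.p6, while probe positions are mm9, per the file headers. The members and lists were chosen with earlier results of these data known. Genes were named by size: the 15 largest rises and falls from day 2, the 10 largest steady changes and 8 day 5 extremes, up to 4 per list and direction, all myogenic regulators and myosins, cell type markers, sex-linked genes and the 10 smallest p of each slope. The steady changes and day 5 extremes were ranked among all genes counted and again among those well above background on all 4 WT arrays. Dim genes of the first ranking, such as Arid3c and Gip, were not described. Other list members named were chosen after their values were seen. Alternatives covered scaling, filter, floor, probe choice, fold threshold, the deposited table and each left-out day. Protein sequences were not used here.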

Additional observations from a re-analysis of the deposited data

Results flagged for a closer look

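Alpl, alkaline phosphatase of bone and liver type, was the only gene among those named and called in the WT course whose difference from day 2 was opposite in the Dnmt3a-KO arrays on every later day. Its mean log2 difference was -1.60 in WT and 1.22 in Dnmt3a-KO. The WT signals were 0.0371 on day 2 and 0.0117, 0.0136 and 0.0115 later, and those of Dnmt3a-KO lay at the floor of 0.00976 on day 2 and at 0.0162, 0.0454 and 0.0161 later. Most of these are close to the floor, so only the day 2 WT array and the day 5 Dnmt3a-KO array were well above background, and the difference between the genotypes was not tested for these steps.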

How the results depend on the processing

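No paired analysis was possible because each genotype has 1 array a day and the labels' replicate numbers pair nothing. Normexp background correction was run but not used as an alternative, since its fit left no low values on days 2 and 6. The 5th percentile of corrected intensity was 1851.3, 227.7, 66.6 and 1496.7 on days 2, 4, 5 and 6. In its place, chosen after seeing the data, a pseudocount of 0.05 replaced the floor. Counts are given in the order higher and lower from day 2, higher and lower from day 4 to 5, from 5 to 6 and from 4 to 6, steady rise and fall, day 5 highest and lowest. They were 1238, 1248, 75, 69, 104, 142, 118, 145, 89, 96, 59 and 8 with the pseudocount, 4051, 3889, 1569, 639, 774, 1991, 1049, 1413, 652, 928, 904 and 123 at 1.5-fold, and 976, 893, 133, 111, 155, 186, 170, 197, 91, 118, 95 and 9 at 3-fold. Genes well above background on all 4 arrays gave, from the day 4 to 5 step on, 66, 57, 77, 159, 107, 201, 89, 151, 30 and 15. Quantile normalization moved the day 4 to 5 counts to 362 and 384, the day 5 to 6 higher count to 489 and day 5 lowest to 71. The deposited table gave 914 higher from day 4 to 5 and 505 highest on day 5. Leaving out 1 later array gave 2352 to 2750 higher and 2231 to 2354 lower genes from day 2, and slopes stayed at 0 calls by limma without any 1 day. The mean of days 4 to 6 gave 2786 and 2709. Only the fit of all 8 arrays called slopes, 5089 up and 4219 down. Of 35 lists, 23 had a median at least 0.5 log2 units from day 2, and 17 with the pseudocount. Of 315 list medians under an alternative 45 moved and none reversed. Of 1846 named gene values 207 moved and 1 reversed: Mbp, a myelin gene, was 1.36 with its brightest probe and -0.080 with the mean of its probes. The causes were not tested. Signal over background limits most counts among days 4 to 6.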

Other observations

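The steps among days 4, 5 and 6 can be set beside those of the Dnmt3a-KO arrays on the same slides. From day 4 to 5 the median step of G2/M and mitosis genes was -0.45 log2 units in WT and 0.72 in Dnmt3a-KO, and from day 5 to 6 it was 0.23 and -0.62. For G1/S and DNA replication the steps were -0.05 and 0.05 in WT and 0.46 and -0.34 in Dnmt3a-KO. Matrix glycoproteins, proteases and inhibitors had steps of 0.41 and -0.22 in WT and 1.12 and -0.82 in Dnmt3a-KO. The slow isoforms had a step of -0.54 from day 5 to 6 in WT and of -0.04 in Dnmt3a-KO. With 1 array per genotype and day the differences between these medians were not tested.

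Genes whose spot was marked as uneven on the WT day 4 array had these signals on days 2, 5 and 6: Tnnc1, the slow troponin C, 50.1, 138 and 111, Cav3, the muscle caveolin, 71.7, 158 and 166, and Myom2, an M-band protein, 55.6, 137 and 123. Myh1, the type 2X heavy chain, measured 90.1, 135 and 113.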
